A study of Homo sapiens with 4 samples.

Results

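Cells that carried at least 2 UMIs (unique molecules counted) of IL8 were compared with cells that carried none, in 4 lines of human melanoma cells profiled by droplet-based 3' RNA sequencing. The lines were WM239A, which the labels call poorly metastatic, and 3 sublines of higher metastatic potential by their labels, 113/6-4L to lung and 131/4-5B1 and 131/4-5B2 to brain. Each subline is a WM239A subclone by its label, each line was 1 library, and the labels give no treatment, so the cells compared share the line of origin and were split only by their IL8 count. The table joins all cells, and their names end in a suffix from 1 to 4. No source used here ties a suffix to a line, so the 4 suffixes are unlabelled samples and are always given in the order 1 to 4. Of 8173 cells, 440 (5.38%, exact binomial 95% interval 4.90 to 5.90) had 2 or more IL8 UMIs, 1014 had exactly 1 and belonged to neither class, and 6719 had 0. The cells were chosen by their IL8 counts, so IL8 itself was removed from every total and is not among the results.

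IL8, also named CXCL8, is a secreted chemokine that attracts neutrophils through the receptors CXCR1 and CXCR2. It belongs to a family of neighbouring genes that includes CXCL1, CXCL2 and CXCL3, and its transcription is known to be driven by NF-kB and AP-1, transcription factors that respond to cytokines, stress and growth factor signals. In melanoma it is known as a tumour-derived factor linked to growth and blood vessel formation.

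The letters before the start sites of IL8, the chemokine genes CXCL1 and CXCL3 and the AP-1 subunit JUN are shown because CXCL1 and JUN were among the genes called higher in the IL8 cells, while CXCL3, which was not called, is a close relative of CXCL1. The sequences are the 250 bases upstream of each start in RefSeq, build GRCh38.p14, on the strand of the gene: chr4:73740319-73740568 (+) for IL8, chr4:73869143-73869392 (+) for CXCL1, chr4:74038690-74038939 (-) for CXCL3 and chr1:58784048-58784297 (-) for JUN. Capitals mark matches to the NF-kB consensus or to the AP-1 and related motifs TGANTCA and TGACNTCA, searched on both strands.
IL8: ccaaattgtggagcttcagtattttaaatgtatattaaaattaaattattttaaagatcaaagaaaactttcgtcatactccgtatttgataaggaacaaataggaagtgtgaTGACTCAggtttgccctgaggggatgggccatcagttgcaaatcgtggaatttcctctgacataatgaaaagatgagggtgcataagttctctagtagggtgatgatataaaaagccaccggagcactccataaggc
CXCL1: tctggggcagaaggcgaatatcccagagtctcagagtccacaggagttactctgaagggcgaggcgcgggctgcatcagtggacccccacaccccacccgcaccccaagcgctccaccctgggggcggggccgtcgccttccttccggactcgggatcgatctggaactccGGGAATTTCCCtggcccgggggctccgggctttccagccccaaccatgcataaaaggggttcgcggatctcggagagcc
CXCL3: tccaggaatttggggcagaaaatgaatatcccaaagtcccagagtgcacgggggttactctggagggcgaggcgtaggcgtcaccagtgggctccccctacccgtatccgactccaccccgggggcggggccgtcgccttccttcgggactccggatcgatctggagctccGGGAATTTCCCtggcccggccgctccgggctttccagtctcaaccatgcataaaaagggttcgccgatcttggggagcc
JUN: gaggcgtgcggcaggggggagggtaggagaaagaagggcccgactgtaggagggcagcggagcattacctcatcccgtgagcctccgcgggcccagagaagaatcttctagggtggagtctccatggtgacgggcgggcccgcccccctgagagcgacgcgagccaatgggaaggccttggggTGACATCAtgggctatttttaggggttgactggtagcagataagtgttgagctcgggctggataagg
IL8 held TGANTCA at -137 to -131 from the start. CXCL1 and CXCL3 each held the NF-kB consensus at -79 to -70, with a second match on the other strand shifted by a base and overlapping it. JUN held TGACNTCA at -67 to -60. Of 35116 RefSeq promoters of this length, 9.96% held the NF-kB consensus, 6.57% TGANTCA and 6.87% TGACNTCA, and a match is only a description of the letters. Of the other windows searched, those of SPP1, called higher, and HMMR, called lower, held none, that of DLGAP5, called lower, held the NF-kB consensus at -56 to -47, and those of CXCL2 and PLAUR, not called, held the NF-kB consensus and TGANTCA, respectively. No match to the NF-kB consensus in the IL8 window says only that its exact letters were not found there.

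The IL8 cells numbered 178 of 2121 under suffix 1, 44 of 1779 under suffix 2, 131 of 2140 under suffix 3 and 87 of 2133 under suffix 4. Their share was 8.39%, 2.47%, 6.12% and 4.08%, with exact binomial 95% intervals of 7.25 to 9.65, 1.80 to 3.31, 5.14 to 7.22 and 3.28 to 5.01. The share was highest under suffix 1 and lowest under suffix 2, and cells with 0 IL8 UMIs numbered 1576, 1580, 1761 and 1802. These intervals, and every interval below, cover counting error only, because each suffix is 1 sample and cells are not replicates. No cell type that should lack IL8 is known to be in the table, so the part of free RNA in these shares was not tested.

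The IL8 cells had more UMIs. Their median count of UMIs other than IL8 was 39668, 42840, 39662 and 39362, against 32499, 40818, 32516 and 32721.5 in the cells without IL8. The ratio was 1.22, 1.05, 1.22 and 1.20, and its median over the suffixes was 1.21. A deeper cell has more chances to show 2 UMIs of any gene, so depth bears on which cells were chosen, and levels below are given as CPM (a gene's UMIs per 1000000 UMIs of all genes but IL8, summed over the cells of a class). Median detected genes were 5661.5, 5793, 5547 and 5624 in the IL8 cells against 5204, 5671.5, 5133 and 5179.5. The median mitochondrial share was slightly lower in the IL8 cells under each suffix (5.25%, 6.57%, 6.93% and 6.22% against 5.46%, 6.70%, 7.17% and 6.87%). Doublets were left in. Cells with 6500 or more detected genes made up 6.36% of the IL8 cells and 5.54% of the cells without IL8. Of 8134 barcodes 39 occurred under more than 1 suffix, and 2 of the IL8 cells carried such a barcode.

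IL8 molecules were unevenly spread among the chosen cells. Of the 440 cells, 244 had exactly 2 IL8 UMIs, 181 had 3 to 11 and 15 had 12 or more, and these 15 cells held 23.4% of all IL8 UMIs in the table. All 15 lay under suffix 1 (10 cells) and suffix 3 (5 cells), where the highest cells held 83 and 155 IL8 UMIs. The highest counts under suffixes 2 and 4 were 9 and 10. The boundary of 12 was chosen after the counts were seen, and the median log2 ratio without these cells is given below for the genes where they weigh most.

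Both classes were melanoma cells by their markers. MITF, the master transcription factor of the melanocyte lineage, stood at 247, 210, 262 and 266 CPM in the IL8 cells and 259, 197, 267 and 262 CPM in the cells without IL8. SOX10, a neural crest factor upstream of it, stood at 68.4, 59.2, 58.9 and 63.6 CPM against 70.5, 58.4, 61.5 and 65.5 CPM. Both genes lay above the other class under some suffixes and below it under others, with ratios of 0.953 to 1.07 for MITF and 0.957 to 1.01 for SOX10. The summed level of 8 melanoma markers ranged from 7559 to 10134 CPM in the IL8 cells and from 6905 to 9856 CPM in the others. Markers of other cell types were low in both classes. Of 17 immune markers 5 were in the table, summed to 34.0 to 43.5 CPM in the IL8 cells against 29.5 to 38.2 CPM, almost all of it CD68, a lysosomal protein that melanoma cells also make. PTPRC (CD45) and CD14, which define leukocytes and monocytes, had 0 UMIs in the IL8 cells. They had only 7 and 3 in the 6719 cells without IL8, so these counts of 0 do not set the classes apart. Of 11 fibroblast markers 9 were in the table, at 22.2 to 44.1 CPM against 18.6 to 37.7 CPM. Of 8 endothelial markers 4 were in the table, at 50.1 to 63.0 CPM against 43.5 to 54.0 CPM. In the IL8 cells EGFL7 had 925 UMIs, KDR 48 and VWF 0, the last against 8 in the cells without IL8. Of 8 epithelial markers 6 were in the table, at 116 to 165 CPM against 117 to 179 CPM. In the IL8 cells KRT18 had 1964 UMIs and KRT8 332, while KRT14 and CLDN4 had 0, against 6 and 1 in the others. The immune, fibroblast and endothelial sums were higher in the IL8 cells under each suffix, and the epithelial sum under suffix 1 only. The cause was not tested.

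Genes were compared if they reached 5 CPM over all cells, whatever the class, which left 8940 genes. For each suffix the log2 ratio of (CPM + 1) in the IL8 cells to (CPM + 1) in the cells without IL8 was taken, and the median over the 4 suffixes describes the gene. A gene was called higher or lower when that median reached 1.5-fold and all 4 suffixes lay on the same side. This is a rule of size and not a test, and a two-sided exact sign test over 4 suffixes could not give a p below 0.125. Called higher were 6 genes (0.0671% of those compared) and called lower were 8 (0.0895%). By any amount, 777 genes (8.69%) were higher and 992 (11.1%) lower in every suffix, and the median of all genes was -0.01. The results below concern few genes.

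**Figure D1:**
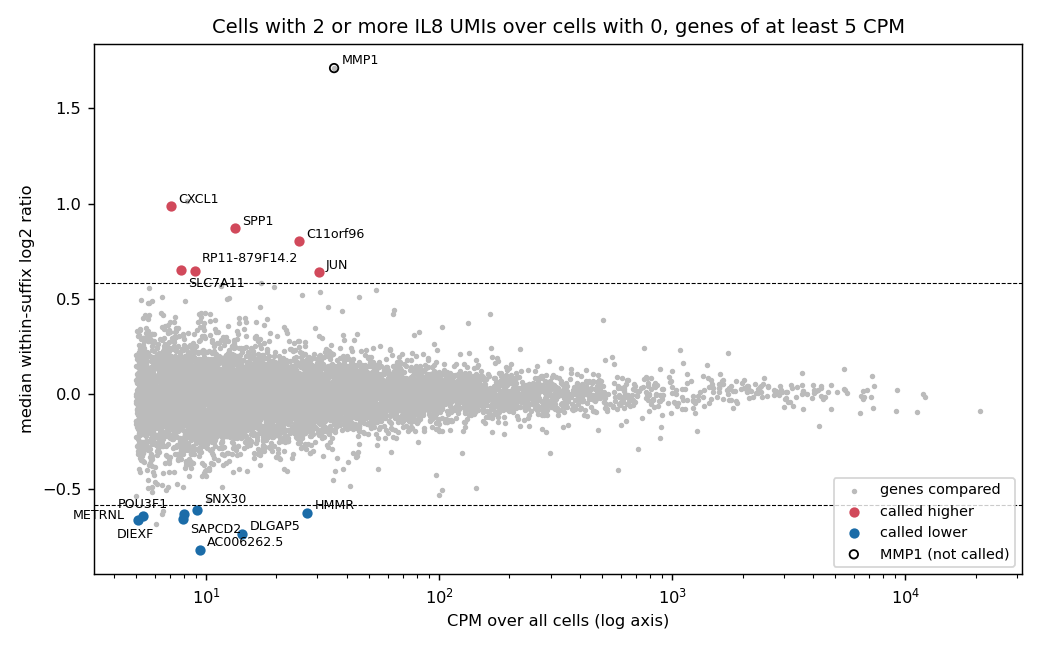
Median within-suffix log2 ratio of (CPM + 1), IL8 cells over cells without IL8 (y), against CPM over all cells (x, log axis), for the 8940 genes compared. Each point is a gene, dashed lines mark 1.5-fold, and coloured points are the 6 genes called higher and the 8 called lower. MMP1 (circled) lies highest at 1.71 but was not called, since 1 suffix lay on the other side.

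CXCL1, a neutrophil chemokine that shares the receptor CXCR2 with IL8, was the named gene farthest up among those called. Its level in the IL8 cells was 21.8, 3.73, 18.5 and 10.2 CPM, against 8.05, 1.31, 9.18 and 6.21 CPM in the cells without IL8. It was higher under every suffix, with ratios of 2.70 (95% interval 2.23 to 3.27), 2.85 (1.11 to 6.13), 2.02 (1.60 to 2.51) and 1.65 (1.13 to 2.33) and a median log2 ratio of 0.99. Only 7 CXCL1 UMIs stood behind the value of suffix 2. At least 1 CXCL1 UMI was seen in 34.3%, 11.4%, 29.0% and 20.7% of the IL8 cells and in 15.4%, 4.56%, 16.4% and 13.1% of the others. Most cells with IL8 thus showed no CXCL1 molecule. After thinning each cell to 10000 UMIs the shares were 15.7%, 0%, 10.7% and 8.05% against 7.07%, 1.27%, 7.73% and 5.61%, and 0 of the 44 cells of suffix 2 allow a share of up to 6.82%, so no direction was detectable there at this depth. Removing the 15 cells with 12 or more IL8 UMIs left the median log2 ratio at 1.01.

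The other chemokines beside IL8 on chromosome 4 that had an entry in the table were too rare to call. In the RefSeq gene order (GRCh38.p14) CXCL1 is the third gene downstream of IL8, CXCL3 the seventh and CXCL2 the eighth. CXCL3 summed to 3.48, 1.07, 4.48 and 0 CPM in the IL8 cells against 0.640, 0.221, 0.261 and 0.576 CPM, which rests on 49 UMIs. It was higher under suffixes 1 to 3 and had 0 UMIs among the IL8 cells of suffix 4, which allows up to 0.875 CPM, and a single cell held 14 of the 23 UMIs of suffix 3. Its median log2 ratio was 1.10 with all cells and 0.44 without the cells of 12 or more IL8 UMIs. CXCL2 had 7 UMIs in all IL8 cells and PF4, a platelet chemokine, had 8. CXCL5 and CXCL6 were looked up and had no entry in the table. Genes of the same stretch that are no chemokines and passed the filter had small ratios. The median log2 ratio was 0.16 for COX18, 0.06 for ANKRD17, an ankyrin repeat protein, and 0.04 for MTHFD2L, a mitochondrial folate enzyme. AREG, an EGF receptor ligand farther along (chosen after its values were seen), had 26 UMIs in the IL8 cells and 3 in the others, but 25 of the 26 came from 1 cell.

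JUN, the AP-1 subunit, was the most even of the genes called higher. Its level was 30.8, 35.7, 61.4 and 58.4 CPM in the IL8 cells and 14.8, 24.8, 39.4 and 36.8 CPM in the others. The ratio was 2.07 (1.77 to 2.42), 1.44 (1.11 to 1.84), 1.56 (1.38 to 1.75) and 1.58 (1.36 to 1.83), with a median log2 ratio of 0.64. All 4 intervals lay above 1. Without the cells of 12 or more IL8 UMIs the median was 0.63. Ranked by the lowest of the 4 ratios, JUN was among the first 5 genes, together with CXCL1, EGR1, NR4A2 and TGFA. This is a rank by size and does not measure likeness to IL8.

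Of the other immediate-early genes, which are switched on within minutes of a signal, none was called. Of 31 listed, 30 were in the table and 21 passed the filter. Among these 21, 1 (JUN) was called higher and none lower, against 0.0671% and 0.0895% of all genes. In all 4 suffixes 7 (33.3%) were higher, against 8.69% of all genes, and 1 (4.76%) lower, against 11.1%. The list median was 0.16 against -0.01. Members below 0 included SRF, with a median of -0.19, and MYC, with -0.11. EGR1, a zinc finger factor, stood at 85.9, 72.5, 85.8 and 87.5 CPM against 70.2, 48.1, 67.7 and 59.8 CPM, a median log2 ratio of 0.44. NR4A2, an orphan nuclear receptor, stood at 46.2, 38.9, 52.2 and 42.6 CPM against 34.8, 27.4, 27.2 and 28.2 CPM, a median of 0.53. Both were higher under every suffix, with medians under 1.5-fold. FOS, the partner of JUN in AP-1, had a median of 0.33 and stood at 91.2 against 89.6 CPM under suffix 2. FOSB reached a median of 0.57 but lay at 13.9 against 14.1 CPM under suffix 2. FOSL1, an AP-1 subunit of invasive melanoma, had a median of 0.28, and ATF3, a stress factor, of 0.58 at levels under the 5 CPM filter. Without the cells of 12 or more IL8 UMIs the median of ATF3 was 0.39.

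**Figure D2:**
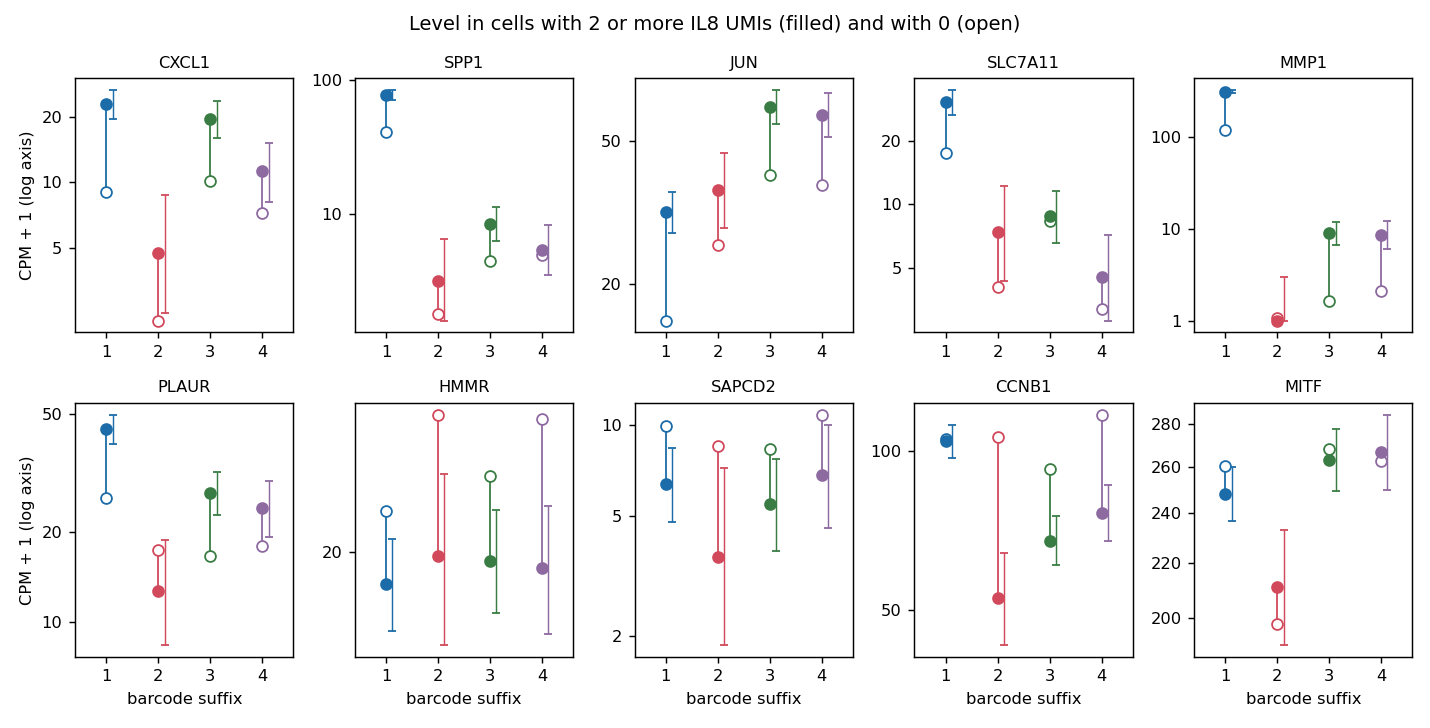
CPM + 1 (y, log axis, scaled separately in each panel) of 10 genes in cells with 2 or more IL8 UMIs (filled) and 0 (open), for each barcode suffix (x). Bars beside the filled points are exact Poisson 95% intervals of the filled value, which cover counting error only. CXCL1, SPP1, JUN and SLC7A11 are higher in the IL8 cells under each suffix, HMMR and SAPCD2 lower, and MITF lies on both sides.

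Genes listed for the NF-kB response differed by small amounts. Of 39 listed, 38 were in the table, 24 passed the filter and none was called. The list also holds parts of the pathway, such as RELA and TRAF2. CXCL1, which was called higher, and CXCL2, CXCL3, CCL2 and CCL20 were counted with the chemokines and not in this list. Among the 24, 4 (16.7%) were higher in all 4 suffixes, against 8.69% of all genes, and 0 lower, against 11.1%. The list median was 0.07. NFKBIA, the inhibitor that NF-kB itself induces, stood at 17.9, 24.0, 15.98 and 15.2 CPM against 16.1, 20.7, 10.1 and 10.6 CPM, a median log2 ratio of 0.34. The adhesion molecule ICAM1 had a median of 0.12, the superoxide dismutase SOD2 of 0.02 and NFKBIZ, a nuclear co-factor of NF-kB, of 0.07. TNFAIP3, which shuts NF-kB signalling off, had a median of 0.39 at levels of 1.60 to 3.21 CPM in the IL8 cells, under the filter. IER3, an early stress gene of this list, stood at 280, 141, 292 and 181 CPM against 214, 142, 138 and 132 CPM. Under suffix 3, 645 of its 1496 UMIs came from 1 cell.

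Among cytokines and growth factors, 21 of 26 listed were in the table and 5 passed the filter. None was called, 2 (40%) were higher in all 4 suffixes against 8.69% of all genes, and the median of the 5 was 0.39. That median was -0.42 with cells thinned to 10000 UMIs and classed again by their thinned IL8 count. This left 84 IL8 cells, 6 of them under suffix 2, so the 2 classes were no longer the same cells. For cells of 1 IL8 UMI against 0 the median was -0.04, so its direction depended on both choices. GDF15, a secreted stress cytokine, stood at 781, 592, 787 and 505 CPM against 641, 422, 453 and 415 CPM. Its ratio was 1.22 (1.18 to 1.25), 1.40 (1.32 to 1.49), 1.74 (1.68 to 1.80) and 1.22 (1.16 to 1.28), and 878 of 4038 UMIs under suffix 3 came from 1 cell. TGFA, an EGF receptor ligand, stood at 22.9, 21.9, 0.974 and 6.13 CPM against 16.2, 17.6, 0.539 and 1.27 CPM, higher under every suffix with a median of 0.42. Under suffix 3 cells of 2 IL8 UMIs held 4 TGFA UMIs and cells of 3 to 11 held 1. Under suffix 4 these numbers were 3 and 18. TGFB1, a growth-inhibitory cytokine, had a median of 0.49 and stood at 6.43 against 6.54 CPM under suffix 3. IL6 had 4 UMIs in all IL8 cells and IL11, of the same family, had 24. IL11 stood at 1.74, 0, 2.14 and 0.292 CPM against 0.0388, 0.0316, 0.0348 and 0.170 CPM. Of its UMIs, 11 of 12 under suffix 1 and all 11 under suffix 3 came from 1 cell each, and 0 UMIs under suffix 2 allow up to 1.60 CPM. Its median log2 ratio was 0.77 with all cells and 0.05 without the cells of 12 or more IL8 UMIs.

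SPP1 (osteopontin, a secreted matrix protein) was called higher, at 76.3, 2.13, 7.41 and 4.38 CPM against 39.8, 0.774, 3.41 and 3.88 CPM. The ratio was 1.92 (1.74 to 2.11), 2.75 (0.722 to 7.51), 2.17 (1.49 to 3.09) and 1.13 (0.621 to 1.90), with a median log2 ratio of 0.87. The intervals of suffixes 2 and 4 included 1, on 4 and 15 UMIs. SLC7A11, the cystine importer of glutathione synthesis, was called higher at 29.5, 6.40, 7.80 and 3.502 CPM against 16.4, 3.03, 7.36 and 2.20 CPM. Its median log2 ratio was 0.65, and under suffix 3 the classes were close at a ratio of 1.06 (0.746 to 1.47). Without the cells of 12 or more IL8 UMIs SPP1 had a median of 0.62 and SLC7A11 of 0.53, so SLC7A11 then lay below the 1.5-fold rule. Also called higher, and named after its value was seen since its clone name falls outside the naming rule, was RP11-879F14.2 with a median of 0.65.

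C11orf96, a gene of little-known function, was called higher but rested on 1 cell. It stood at 16.5, 40.0, 205 and 34.4 CPM against 13.7, 17.0, 30.7 and 25.6 CPM. A single cell of suffix 3 held 872 of the 1053 UMIs there, and without that cell the level was 35.7 CPM. The ratio under suffix 2 was 2.35 (1.84 to 2.98) and did not rest on a single cell, the highest holding 8 of 75 UMIs. Its median log2 ratio was 0.80 with all cells and 0.37 without the cells of 12 or more IL8 UMIs. Only CXCL1, JUN and SPP1, 3 of the 6 genes, were then still called higher, while the 8 genes called lower were called again.

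MMP1, the interstitial collagenase, had the largest median log2 ratio of all genes compared, 1.71, and was not called. It stood at 311, 0, 7.99 and 7.59 CPM in the IL8 cells and 119, 0.0632, 0.626 and 1.09 CPM in the others. Under suffix 1 the ratio was 2.62 (2.49 to 2.75) on 2146 UMIs, under suffix 3 it was 12.8 (7.96 to 20.6) and under suffix 4 it was 6.99 (4.25 to 11.2). The gene was nearly silent under suffix 2, with 4 UMIs in 1580 cells without IL8 and 0 in 44 IL8 cells, which allows up to 1.60 CPM, so no direction can be read there. Under suffix 1, 76.4% of the IL8 cells held an MMP1 UMI against 62.6% of the others, and under suffixes 3 and 4 only 7 and 4 IL8 cells did. PLAUR, the urokinase receptor, stood at 43.4, 11.7, 26.1 and 23.1 CPM against 25.1, 16.4, 15.6 and 17.0 CPM, higher under suffixes 1, 3 and 4 and at a ratio of 0.714 (0.446 to 1.09) under suffix 2. Without the cells of 12 or more IL8 UMIs the median log2 ratio was 1.34 for MMP1 and 0.35 for PLAUR, against 0.56 for PLAUR with all cells. Of 17 proteases and inhibitors past the filter (23 of 28 in the table), none was called, and the median was 0.06. In all 4 suffixes 3 (17.6%) were higher and 1 (5.88%) lower, against 8.69% and 11.1% of all genes.

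NGFR and AXL, markers of the undifferentiated melanoma state, had most of their UMIs under suffix 1. NGFR, a neurotrophin receptor of neural crest cells, stood at 33.7 against 5.00 CPM there, a ratio of 6.73 (5.61 to 8.07), and 20.8% of the IL8 cells held an NGFR UMI against 8.19% of the others. Elsewhere its IL8 cells held 1, 0 and 5 UMIs. AXL, a receptor kinase of that state, stood at 6.24 against 0.601 CPM under suffix 1, on 43 UMIs in 9 of 178 cells, 22 of them in 2 cells of 12 or more IL8 UMIs, and had 0 UMIs in the IL8 cells of the other suffixes. The difference between suffixes was not tested. SERPINB2, an inhibitor of urokinase (chosen after its values were seen), had 52, 0, 26 and 1 UMIs in the IL8 cells, the 26 of suffix 3 in 1 cell, and its median log2 ratio went from 1.36 to 0.17 without the cells of 12 or more IL8 UMIs. Of 25 genes listed for the undifferentiated or invasive state, 24 were in the table and 12 passed the filter. Among the 12, 1 (JUN) was called higher, against 0.0671% of all genes, and the median was 0.14. In all 4 suffixes 5 (41.7%) were higher, against 8.69% of all genes, and none lower, against 11.1%. CYR61, a matricellular target of YAP, stood at 25.1, 10.7, 13.8 and 9.05 CPM against 15.1, 7.66, 10.7 and 8.34 CPM, a median of 0.39. NT5E, an adenosine-producing ectoenzyme, had a median of 0.30.

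Melanocytic differentiation genes showed no common direction. Of 25 listed, 24 were in the table and 22 passed the filter. None was called, and the median was -0.01, equal to that of all genes. Taken by suffix, the list median was -0.14, 0.12, 0.003 and 0.03, and the difference between suffixes was not tested. In all 4 suffixes 2 (9.09%) were higher and 3 (13.6%) lower, near the 8.69% and 11.1% of all genes. PMEL, a melanosome protein, stood at 1959, 2886, 4770 and 4604 CPM against 2252, 2758, 4897 and 4490 CPM. TYR, the key enzyme of melanin synthesis, stood at 108, 122, 115 and 107 CPM against 123, 126, 133 and 136 CPM, lower under every suffix with a median of -0.20. EDNRB, the endothelin B receptor, was higher under every suffix with a median of 0.21.

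**Figure D3:**
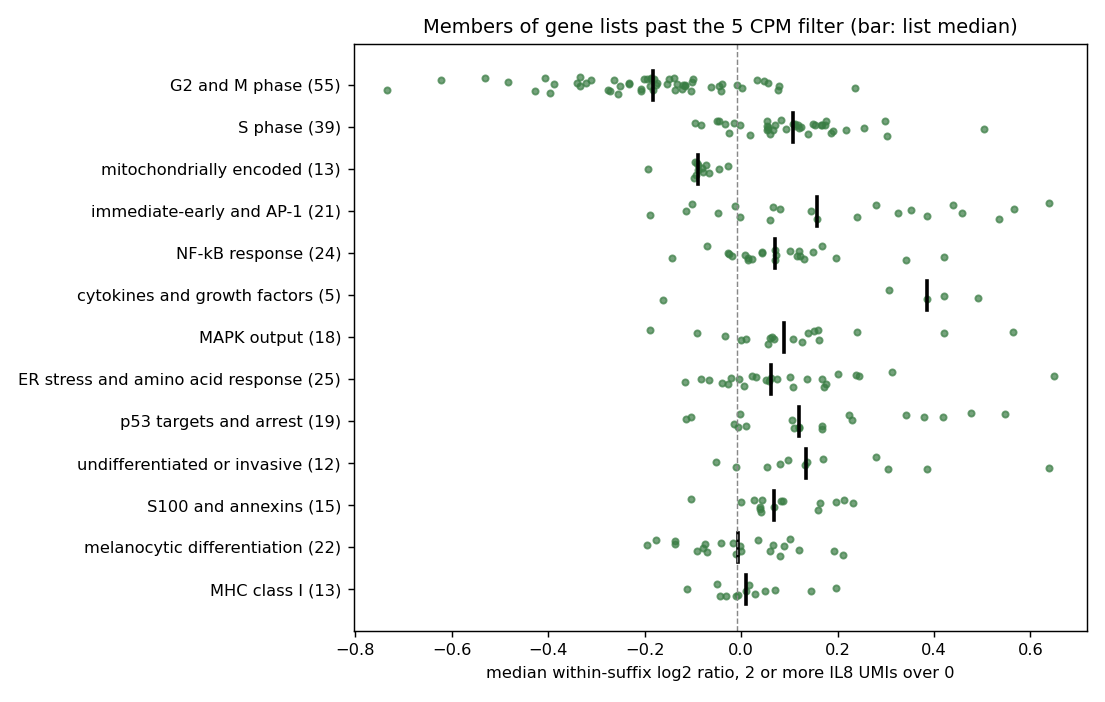
Median within-suffix log2 ratio of (CPM + 1), IL8 cells over cells without IL8 (x), for each member past the 5 CPM filter (points) of 13 gene lists (y, number of members in brackets). Black bars are list medians and the dashed line is the median of all genes, -0.01. The bar of the G2 and M phase list lies lowest at -0.18 and that of the 5 cytokines and growth factors highest at 0.39.

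Genes of the G2 and M phases, when a cell prepares for and carries out division, were more often lower than higher, though few were called. Of 56 listed, all were in the table and 55 passed the filter. Among the 55, 2 were called lower and none higher, against 0.0895% and 0.0671% of all genes. In all 4 suffixes 26 (47.3%) were lower, against 11.1% of all genes, and none higher, against 8.69%. The list median was -0.18. Some members lay above 0, HJURP farthest at 0.24. HMMR, a spindle-associated hyaluronan receptor, stood at 16.7, 18.7, 18.3 and 17.8 CPM against 22.3, 32.8, 25.7 and 32.2 CPM. Its ratio was 0.747 (0.611 to 0.906), 0.569 (0.395 to 0.794), 0.714 (0.573 to 0.880) and 0.553 (0.421 to 0.714), so all 4 intervals lay below 1. DLGAP5, a spindle protein, had a median log2 ratio of -0.73 but was close under suffix 1, at 12.5 against 12.9 CPM. CCNB1, cyclin B1, stood at 103, 51.7, 66.7 and 75.3 CPM against 104, 105, 91.1 and 116 CPM. CDKN3, a cell cycle phosphatase, and ARL6IP1, a membrane protein of the endoplasmic reticulum (both chosen after their values were seen), had medians of -0.51 and -0.50 and were lower under every suffix.

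The other genes called lower had few UMIs. SAPCD2, which helps orient the spindle, stood at 5.37, 2.67, 4.48 and 5.84 CPM against 8.96, 7.51, 7.36 and 9.85 CPM, with all 4 intervals of its ratio below 1. POU3F1, a neural transcription factor, had a median log2 ratio of -0.63 and stood at 7.46 against 7.79 CPM under suffix 2. DIEXF, a nucleolar protein, had a median of -0.66, METRNL, a secreted factor, of -0.64 and SNX30, a sorting nexin, of -0.61, each on 60 to 119 UMIs in the IL8 cells. AC006262.5, a clone-named gene given after its value was seen, had a median of -0.82.

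Genes of S phase, when DNA is copied, differed little and in no steady direction. Of 44 listed, 42 were in the table and 39 passed the filter. None was called and the median was 0.11. In all 4 suffixes 5 (12.8%) were higher, against 8.69% of all genes, and 0 lower, against 11.1%. The list median was -0.16 under suffix 2. With cells thinned to 10000 UMIs and classed again by their thinned IL8 count, the median over suffixes was -0.19. EXO1, a DNA exonuclease, had a median log2 ratio of 0.50 and CHAF1B, which loads histones on new DNA, of 0.30, but each lay below 0 under 1 suffix. Among 19 p53 targets and arrest genes past the filter (22 of 23 in the table), none was called, with a median of 0.12. In all 4 suffixes 4 (21.1%) were higher, against 8.69% of all genes, and none lower, against 11.1%. CDKN1A, the p21 inhibitor of the cell cycle, stood at 70.1, 121, 106 and 46.7 CPM against 55.9, 84.3, 46.5 and 46.7 CPM, and 140 of its 544 UMIs under suffix 3 came from 1 cell. GADD45A, a growth arrest gene, stood at 109, 83.7, 59.2 and 35.3 CPM against 68.5, 55.2, 41.5 and 38.6 CPM, and its median of 0.55 was 0.32 without the cells of 12 or more IL8 UMIs. CCND1, cyclin D1 of G1 phase, was higher under every suffix with a median of 0.24.

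Cell cycle phases assigned after thinning each cell to 10000 UMIs showed fewer G2M cells among the IL8 cells. The G2M share was 14.6%, 9.09%, 13.7% and 23.0% in the IL8 cells and 25.5%, 28.1%, 24.3% and 30.1% in the cells without IL8. Pooled over suffixes it was 15.5% (12.2 to 19.2) against 27.0% (26.0 to 28.1). The pooled intervals count cells as if from 1 sample and the suffixes gave different shares of each class, so they are no test between the classes. Within suffixes, the counting intervals of the classes overlapped under suffix 4 alone (14.6 to 33.2 against 28.0 to 32.3). The pooled G2M share was 27.0%, 22.5%, 18.0% and 11.6% at 0, 1, 2 and 3 to 11 IL8 UMIs, and 3 of the 15 cells with 12 or more were in G2M (exact binomial 95% interval 4.33% to 48.1%). No single suffix fell at every step up to 3 to 11 UMIs: the shares were 25.5%, 18.6%, 11.6% and 15.9% under suffix 1, 28.1%, 27.1%, 8.82% and 10% under suffix 2, 24.3%, 18.95%, 21.3% and 3.92% under suffix 3, and 30.1%, 29.1%, 30.6% and 13.2% under suffix 4. The suffixes also held different shares of the cells at each step. The pooled S share was 51.4% against 45.6% and the G1 share 33.2% against 27.4%. Phase calls read the genes of the lists above and are no separate measurement of them, and the part of free RNA in them was not tested. Within cells assigned to G1 the G2 and M list still had a median of -0.16, with DLGAP5 at 0.20, and the S phase list a median of -0.17. With the cells without IL8 weighted to the depth of the IL8 cells the medians were -0.29 and 0.05.

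**Figure D4:**
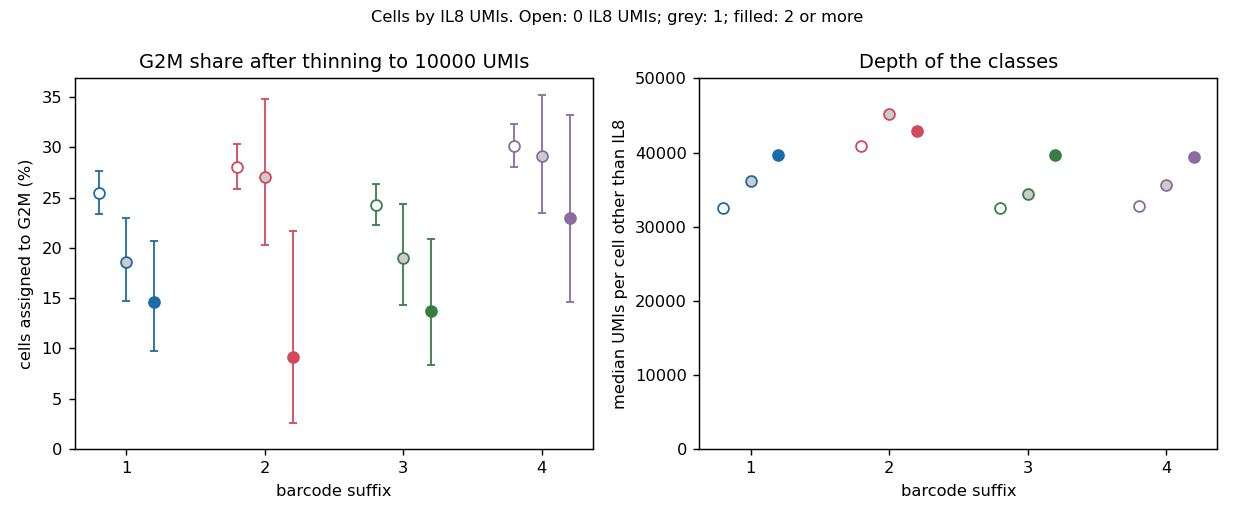
Share of cells assigned to the G2M phase after thinning to 10000 UMIs (left, %, with exact binomial 95% intervals) and median UMIs per cell other than IL8 (right), for each barcode suffix and for cells with 0 (open), 1 (grey) and 2 or more (filled) IL8 UMIs. Filled points lie below open points in the left panel and above them in the right panel under every suffix.

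The 13 mitochondrially encoded genes all passed the filter and were lower by small amounts. None was called, 8 (61.5%) were lower in all 4 suffixes against 11.1% of all genes, and the median was -0.09. MT-ND6, a subunit of respiratory complex I, was farthest down at 84.8, 63.4, 55.5 and 67.7 CPM against 111, 72.5, 63.9 and 72.6 CPM. With depth weighted the list median was -0.03. S100 proteins and annexins, calcium-binding proteins, leaned up by small amounts, with a median of 0.07. Of 15 past the filter 6 (40%) were higher in all 4 suffixes, against 8.69% of all genes, and none lower. ANXA1 stood at 240, 126, 47.2 and 61.3 CPM against 177, 111, 44.3 and 50.1 CPM. Of 20 cholesterol synthesis genes past the filter, 6 (30%) were lower in all 4 suffixes, against 11.1% of all genes, and none higher. Their median was -0.07. Of 14 interferon-stimulated genes past the filter, 2 (14.3%) were higher in all 4 suffixes, against 8.69% of all genes, and none lower. Their median was 0.02. Of 11 heat shock genes 3 (27.3%) were lower in all 4, against 11.1% of all genes, and none higher, with a median of -0.06.

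Cells with exactly 2 IL8 UMIs lie just inside the rule and cells with 1 just outside it. CXCL1 under suffix 1 stood at 8.05, 11.01, 19.8 and 19.7 CPM at 0, 1, 2 and 3 to 11 IL8 UMIs. Under suffixes 2 and 3 its level was also higher at 3 to 11 than at 0 (4.81 against 1.31 and 32.0 against 9.18 CPM), and under suffix 4 it was 15.7 against 6.21 CPM while the level at 2 UMIs was 6.13 CPM. JUN under suffix 4 stood at 36.8, 41.6, 43.4 and 78.3 CPM over the same steps, and under suffix 3 at 39.4, 39.8, 62.3 and 57.8 CPM. HMMR under suffix 2 stood at 32.8, 30.2, 21.2 and 9.62 CPM, the last on 4 UMIs, and under suffix 4 at 32.2, 27.2, 20.9 and 13.6 CPM. Under suffix 1 it went from 22.3 to 18.5 and 14.4 and back to 19.7 CPM, and under suffix 3 it stood at 25.7, 19.5, 19.4 and 17.5 CPM. Depth differed along these steps as well, with a pooled median of 34307, 36765, 39668 and 39662 UMIs per cell, and its part in the levels was not tested.

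**Figure D5:**
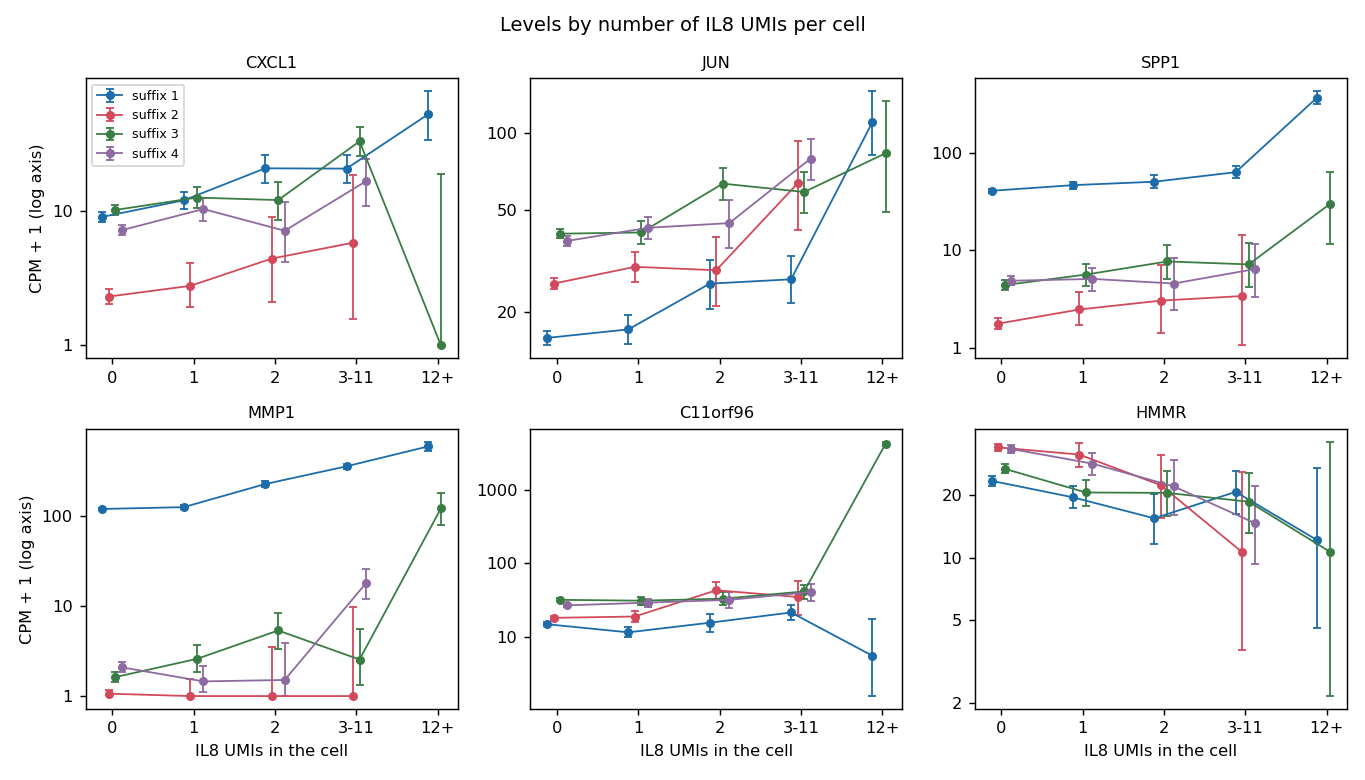
CPM + 1 (y, log axis) of 6 genes against the number of IL8 UMIs in the cell (x), for each barcode suffix (colours), with exact Poisson 95% intervals that cover counting error only. A level of 0 CPM lies at 1, and suffixes 2 and 4 hold no cell of 12 or more. MMP1 under suffix 1 goes from 119 CPM at 0 IL8 UMIs to 593 CPM at 12 or more, and C11orf96 under suffix 3 rests on 1 cell at 12 or more.

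The 15 cells with 12 or more IL8 UMIs were not alike. The cell of suffix 3 with 133 IL8 UMIs held 222 UMIs of CCL3, a macrophage inflammatory chemokine (chosen after its values were seen), 872 of C11orf96, 645 of IER3, 878 of GDF15 and 140 of CDKN1A, with 14 of CXCL3 and 0 of CXCL1. The cell of suffix 3 with 155 IL8 UMIs held 43 UMIs of CCL20, a chemokine for CCR6-bearing cells, 26 of SERPINB2 and 5 of CXCL3, and 0 of CXCL1 as well. The remaining 3 such cells of suffix 3 held no MMP1, SPP1, PLAUR or CXCL1 UMI. Under suffix 1, 9 of the 10 cells held both MMP1 and SPP1, with 83 SPP1 UMIs in the cell of 35 IL8 UMIs and 91 MMP1 UMIs in a cell of 13. NGFR was carried by 4 of the 10 and AXL by 2, the latter with 38 and 29 IL8 UMIs. The cell with 83 IL8 UMIs had 13629 UMIs in all, a mitochondrial share of 0.707%, 22 UMIs each of JUN and ATF3, and no CXCL1. CXCL1 was found in 5 of the 15 cells, all under suffix 1. PMEL and MLANA, the melanoma antigens, had at least 1 UMI in all 15, but MLANA counts were as low as 2 of 23902 UMIs in the cell of 57 IL8 UMIs, 12 of 81243 in that of 38 and 9 of 75589 in that of 29. In the same order these cells held 5, 15 and 10 PMEL UMIs and 1, 1 and 0 of MITF. The cell of 83 IL8 UMIs held 7 of MLANA, 9 of PMEL and 1 of MITF. Other such cells of suffix 1 held more, up to 125 of MLANA and 140 of PMEL. Summed over the 10 such cells of suffix 1, MLANA stood at 1317 CPM, against 2208 CPM in the cells without IL8. The part of free RNA in such counts was not tested.

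Pooling the suffixes mixes their different shares of IL8 cells, since suffix 1 gives 178 of the 440 IL8 cells but 1576 of the 6719 cells without IL8. Sums pooled over suffixes gave 40 genes at least 1.5-fold higher and 15 lower. When the IL8 cells were set against the UMIs expected from cells without IL8 of the same suffixes, 15 genes were higher and 3 lower, and 5 of the 6 and 2 of the 8 genes called by the median were among them. By that ratio CXCL1 was 2.27-fold (2.02 to 2.55) and JUN 1.66-fold (1.55 to 1.78) the expected level, SPP1 1.90-fold (1.75 to 2.06) and MMP1 2.68-fold (2.57 to 2.79). HMMR was at 0.667 (0.594 to 0.746) and SAPCD2 at 0.577 (0.461 to 0.713) of it. In plain pooled sums MMP1 read 128 against 27.0 CPM, while its level in cells without IL8 ranged from 0.0632 to 119 CPM over the suffixes.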

How the data were processed

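UMI counts per gene and cell were taken from the table that the authors deposited, made with Chromium Single-cell 3' version 2 chemistry per the labels' protocols. The submitters' processing notes name Cell Ranger 3.0.0, Seurat 3.0 and the genome builds hg19 and mm10, without the role of each. The deposited table of values on a natural log scale was not used. Cells had 3001 to 6999 detected genes, and no cell was removed here. No doublet caller was run and free RNA was not removed.

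Cells were classed by IL8 UMIs (2 or more, or 0) within each barcode suffix, and UMIs were summed per class and suffix with Python 3.11.15, pandas 2.3.3 and scipy 1.17.1. CPM totals exclude IL8. Ratios use a pseudocount of 1 CPM and genes of at least 5 CPM over all cells, and log2 values of low genes are therefore understated. A gene was called at a median of 1.5-fold with 4 suffixes on 1 side. Intervals at 95% are exact Poisson for a level, exact conditional binomial for a ratio and Clopper-Pearson for a share. A count of 0 allows up to 3 counts. No test between classes was made and no p-value computed from cells. Phases came from scanpy 1.11.5 after thinning each cell to 10000 UMIs, leaving out 9 shallower cells, none of them with 2 or more IL8 UMIs. The calling step was tested on simulated sums that held counting error only. These sums had no spread between cells, so they do not show how often single cells lead to a call.

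Genes named are up to 10 called in each direction (mitochondrial, ribosomal protein and clone-named genes left out), up to 3 members of each of 35 lists with the largest median ratio, 5 genes whose lowest ratio over the suffixes was highest, and a set list of chemokine, cytokine, AP-1, NF-kB and melanoma state genes. The members, gene lists and rules were chosen with earlier results of these data known. Genes named after their values were seen are marked as such. Promoter letters are from RefSeq, and SLC7A11, MMP1 and C11orf96 have no entry in that table. The alternatives tried include TMM scaling (edgeR 4.0.16 in R 4.3.3, for scaling factors only) and those named in the closing section.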

Additional observations from a re-analysis of the deposited data

Results flagged for a closer look

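Cells with exactly 1 IL8 UMI belong to neither class. Of the 6 genes called higher, 4 were also higher in these cells than in cells with 0 under each of the 4 suffixes. The median log2 ratio was 0.357 for CXCL1, 0.276 for SPP1, 0.237 for SLC7A11 and 0.141 for JUN. C11orf96 was higher under only 2 suffixes, with a median of 0.011. Values for the clone-named gene called higher are not given for these cells. Under suffix 3 JUN was close, at 39.8 against 39.4 CPM. Both comparisons use the same cells with 0 IL8 UMIs, so they are not independent. The share of all genes that were higher in this way under each suffix was not computed. No gene reached the 1.5-fold rule in that comparison. These cells were deeper than cells with 0 by 1.06 to 1.11 times in median UMIs, and the part of depth was not tested.

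In 3 genes the IL8 cells lay above the cells without IL8 under 1 suffix and below under another, with counting intervals on opposite sides of 1. The difference between suffixes was not tested. CAPG, an actin-capping protein chosen after its values were seen, was at 23.5 against 11.4 CPM under suffix 2 and at 1.75 against 4.27 CPM under suffix 4, a gap of 1.91 on the log2 scale, the latter on 6 UMIs. Under suffix 1 it stood at 79.8 against 143 CPM. MLANA had a gap of 0.322 between suffix 2 (ratio 1.11, 1.08 to 1.14) and suffix 1 (0.887, 0.871 to 0.903). PMEL had a gap of 0.266 between the same suffixes (1.05, 1.02 to 1.08, and 0.870, 0.854 to 0.886). Counting intervals leave out the spread between cells.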

How the results depend on the processing

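With 6 genes called higher and 8 lower, the counts were 17 and 20 with no filter on low genes, 2 and 1 with a filter at 20 CPM, 3 and 0 with a pseudocount of 5 CPM, 17 and 35 with 3 or more IL8 UMIs required, 0 and 0 for cells of 1 IL8 UMI, 101 and 469 with cells thinned to 10000 UMIs, 19 and 60 among G1 cells, and 40 and 15 with sums pooled over suffixes. Chosen after seeing the data, leaving out cells of 12 or more IL8 UMIs gave 3 higher, and the suffix-standardised ratio gave 15 higher and 3 lower. Leaving out each suffix in turn gave 6 to 10 higher and 8 to 17 lower, and every other alternative stayed within 1.5 times. The genes called changed as well. Of the 8 called lower, 3 were called again with 3 or more IL8 UMIs, 2 among G1 cells, 1 after thinning and 5 with depth weighted. Of the 6 called higher, 6, 4, 1 and 6 were called again in the same order. In that comparison thinned cells were classed again by their thinned IL8 count, which gave 84 IL8 cells against 7592. Of these 84, 6 lay under suffix 2. G1 classes held 146 IL8 cells, so few UMIs stood behind the counts of both alternatives. Among the genes called, clone-named genes aside, signs turned for SLC7A11 (-0.49) and SNX30 (0.48) after thinning and for DLGAP5 (0.20) in G1. Genes not called turned as well, among them TNFAIP3 (-0.23) after thinning. For cells of 1 IL8 UMI against 0, MMP1 (-0.01), NFKBIA (-0.03), TGFA (-0.04), IL11 (-0.05) and CXCL3 (-0.06) did. The cause was not tested. The depth ratio of 1.21 was 1.10 for cells of 1 IL8 UMI and 1.20 to 1.22 without each suffix in turn. Of 1008 single-gene values under the alternatives 674 moved by less than the gene's counting interval. The classes were compared within each suffix throughout, and the sums pooled over suffixes are the comparison without that pairing. Depth limits suffix 2 most, where 44 IL8 cells hold 1875668 UMIs.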
